A study of Mus musculus with 10 samples.

Results

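The genes of oxidative phosphorylation were followed in brain endothelial cells (BECs) from APP/PS1 and age-matched control mice. BECs line the cerebral vessels and form the blood–brain barrier. Members were chosen by symbol alone. They were the protein-coding genes of the deposited table whose name in the GENCODE M21 annotation begins with Nduf, Sdh, Uqcr, Atp5, Cox4 to Cox8 or mt-, leaving out Ndufa4l2 and Cox4i2. The rule covered 109 annotated genes, and 92 of the 14106 genes in the table met it, 85 encoded in the nucleus and 7 in mitochondrial DNA. The other 17 were not analysed here: Ndufb4, Ndufs3, Uqcrc1, Cox6a2, Cox6b2, Cox7a1, Cox7b2, Cox8b, Cox8c, Atp5g2, a second gene annotated as Atp5o, mt-Atp6, mt-Atp8, mt-Co2, mt-Co3, mt-Nd3 and mt-Nd4l. The rule also took in 12 assembly factors, the Ndufaf and Sdhaf genes, whose products help to build complexes I and II but are not part of them.

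The study sequenced RNA in 10 libraries, 5 per group, and all mice were female and 1 year old. APP/PS1 mice (APPswe/PS1ΔE9, on a C3H/BL6 background) carry a mouse/human hybrid of the amyloid precursor protein bearing the Swedish mutation, and a mutant human presenilin 1, both expressed throughout the body rather than in endothelium alone, and the controls are labelled WT. In both groups the animals were flushed with PBS, the cortex was freed of meninges and myelin, and CD31+CD45- cells were taken with magnetic beads. Each APP/PS1 library was compared with the control library of the same replicate number, so p-values of the main model measure the spread of these 5 differences. Whether a library is 1 mouse or a pool is not given in the sources used here, so that spread cannot be read as one between mice.

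Oxidative phosphorylation is the last stage of respiration in mitochondria. Complexes I and II take electrons from NADH and succinate, complex III passes them to cytochrome c, complex IV hands them to oxygen, and the protons pumped on the way drive ATP synthase, complex V. Complexes I, III, IV and V are assembled from nuclear and mitochondrial gene products, while complex II is nuclear only. Endothelial cells of the brain are known for a higher mitochondrial content than those of most other vascular beds.

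The libraries read as endothelium. The summed level of 18 endothelial marker genes lay between 15.1 and 15.2 log2 CPM (counts scaled to library size) in every library. The depth recovered from the deposited values was 22371766 to 126686149 adjusted counts, that is, counts after the study's batch correction. Both libraries of replicate 1 were the shallowest of their group, at 22993426 (control) and 22371766 (APP/PS1) counts, and all others held at least 68813558. The lowest value of any member in any library was 59 adjusted counts (Atp5g1). Apart from the microglial ones, markers of other cells were mostly lower on average in APP/PS1 libraries. None passed the adjusted test between the groups, and the smallest adjusted p was 0.195 with limma, for Sox10 of the oligodendrocyte list. Beside the counts of lower markers given here, 51.8% of all genes were lower on average. The summed level of 13 mural (pericyte and smooth muscle) markers was 9.21 to 9.96 log2 CPM in controls and 8.25 to 9.20 in APP/PS1 libraries, and 13 of 13 were lower on average. For 8 oligodendrocyte markers it was 9.65 to 10.2 and 9.41 to 9.85, with 8 of 8 lower. For 9 astrocyte markers it was 7.43 to 7.74 and 7.42 to 7.75, with 8 of 9 lower. The sum of the astrocyte list rests mostly on Gja1, the 1 marker not lower, at 7.09 and 7.36, while Aldoc and Slc1a2 differed by -1.59 and -1.48 and the list's median difference was -0.86. For 4 neuronal markers it was 6.55 to 6.88 and 6.61 to 6.94, with 3 of 4 lower. For 8 microglial markers it was 5.80 to 6.03 and 5.73 to 5.97, with 4 of 8 lower. For 4 erythroid markers it was 4.88 to 7.91 and 3.84 to 7.25, with 4 of 4 lower. Mag, of myelin, was the 1 marker with 0 counts in a library.

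In control BECs the mitochondrial genes stood above nearly all nuclear ones. The following levels are log2 CPM per kilobase of the principal transcript, averaged over the 5 control libraries. The 7 mitochondrial genes had a median of 9.59, from 6.71 for mt-Nd6 to 10.9 for mt-Co1. The 85 nuclear genes had a median of 4.95, from -0.73 for Atp5g1 to 7.80 for Atp5b. Among nuclear genes the order followed the complexes only loosely. The F1 part of ATP synthase, which carries the catalytic sites, had the highest group median (6.66, 5 genes), followed by complex IV (6.24, 12 genes). Complex II subunits (5.21, 4 genes), the stalk and membrane part of ATP synthase (5.02, 11 genes), complex I core (4.98, 6 genes), complex I accessory (4.92, 28 genes) and complex III subunits (4.79, 7 genes) lay close together. Assembly factors were the lowest, at 2.84 for complex I (8 genes) and 2.67 for complex II (4 genes).

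The 3 highest nuclear genes were Atp5b, Cox4i1 and Atp5j. Atp5b, the catalytic beta subunit of ATP synthase, reached 7.80, Cox4i1, the ubiquitous form of complex IV subunit 4, 7.31, and Atp5j, a part of the stalk, 7.17. The 3 lowest were Atp5g1 at -0.73, Sdhaf3 at 0.05 and Ndufaf6 at 1.47. Part of that order comes from transcript length, since the transcripts taken for Atp5g1 and Sdhaf3 were 4715 and 4323 bases, and per kilobase of coding sequence their levels were 2.81 and 3.57.

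**Figure D1:**
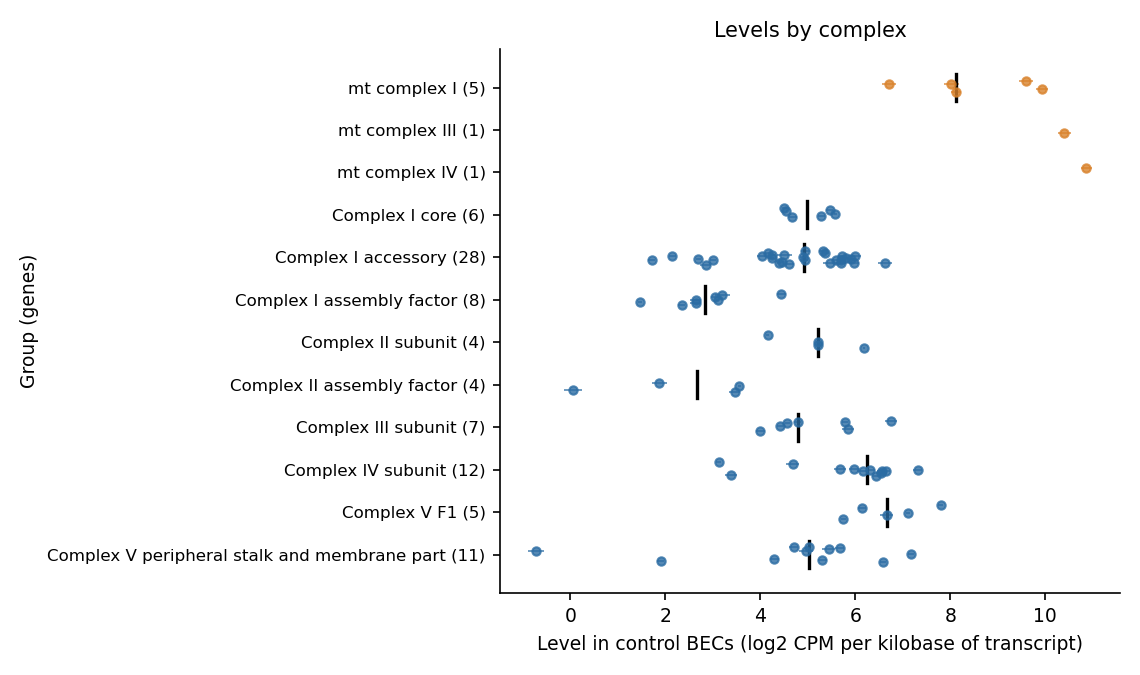
Level of each of the 92 genes in control BECs, in log2 CPM per kilobase of transcript (horizontal axis), by group (vertical axis). Points are the means of 5 libraries with their SD as bars, and the short vertical line is the group median. Mitochondrial genes (orange) run from 6.71 to 10.9 and nuclear genes (blue) from -0.73 to 7.80.

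Where complex IV uses alternative isoforms, the table held the widespread form. The table also lacked mt-Co2, mt-Co3, Ndufs3 and Uqcrc1, so the absence of an isoform does not show that it was not expressed. Cox4i1, Cox6a1, Cox6b1, Cox7a2 and Cox8a were listed, at 6.93 ± 0.10, 5.83 ± 0.09, 5.87 ± 0.10, 5.55 ± 0.11 and 5.58 ± 0.09 log2 CPM in controls (SD, n = 5). Cox7a2l, a relative of Cox7a2 known for joining complexes III and IV into supercomplexes, stood at 5.78 ± 0.13. Of the genes for subunit c, the proton-carrying ring of ATP synthase, Atp5g3 was read at 6.09 ± 0.06 and Atp5g1 at 1.51 ± 0.16 log2 CPM, a gap of level per kilobase from 6.58 to -0.73. Ndufa4, named for complex I but counted here with complex IV as it is now assigned, stood at 5.84 ± 0.12. None of these passed the test between genotypes. Their differences (APP/PS1 minus control) ran from -0.13 for Ndufa4, Cox6b1 and Cox7a2l to -0.0033 for Cox8a, which came to 0.0013 with median-of-ratios scaling.

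No oxidative phosphorylation gene passed an adjusted p of 0.05 between APP/PS1 and control BECs, among either the 85 nuclear or the 7 mitochondrial genes. The model, limma with the replicate pair as a term and Benjamini-Hochberg adjustment over all 14106 genes, called 0 genes in all (0.0%), while at an unadjusted p under 0.05 it found 833 lower and 300 higher. The smallest adjusted p of a member was 0.569, for Ndufa8. Without the replicate pair in the model 648 genes passed (4.59%), among them 1 nuclear member, Ndufa8 at an adjusted p of 0.049, and 0 mitochondrial members. In RNA from a purified population, fewer cells of a type and less RNA per cell cannot be told apart.

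The nuclear genes lay slightly below zero on average. Their median difference was -0.073 on the log2 scale, against -0.0038 over all genes tested, and 71 of 85 lay below zero, where 51.8% of all genes did. At an unadjusted p under 0.05, 3 nuclear members were lower (5.91% of all genes) and 0 higher (2.13%). In all 5 pairs 5 were lower (5.0%) and 0 higher (2.99%). The same 5 were the nuclear members whose groups did not overlap (7.88%). The deposited values are centred within pairs, so this is nearly the same property and not separate support. For 85 genes these counts lie near the shares of all genes. Leaving out replicates 1 to 5 in turn, the nuclear members lower in all 4 remaining pairs came to 5 (6.95% of all genes), 15 (13.3%), 7 (6.83%), 14 (8.41%) and 6 (7.57%). Those higher in all 4 came to 1 (4.9%), 0 (11.8%), 0 (4.59%), 1 (6.27%) and 0 (5.15%). The mitochondrial genes had a median of 0.014 with 4 of 7 above zero, and with library size as the only scaling the median was -0.023.

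Together the 7 mitochondrial genes took 0.644 to 0.806% of the adjusted counts in controls and 0.616 to 0.785% in APP/PS1 libraries, with means of 0.719 ± 0.063% and 0.708 ± 0.065% (SD, n = 5). The 85 nuclear genes took 0.357 to 0.400% and 0.337 to 0.378%, with means of 0.379 ± 0.016% and 0.357 ± 0.015%. Both ranges overlapped between the groups. The deposited values had been centred within each replicate pair, and in each pair the deviations of the control and the APP/PS1 library from their group means were nearly mirror images (rank correlation -0.999 to -0.989 over 10873 genes). The 10 libraries therefore carry 5 differences, and the results that follow are given pair by pair. For the same reason, groups without overlap and pairs that all differ in the same direction are nearly the same observation.

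Among mitochondrial genes, mt-Co1, the catalytic subunit of complex IV (chrM:5328-6872 in mm10), was the most abundant. Its control libraries 1 to 5 read 11.64, 11.53, 11.46, 11.49 and 11.33 log2 CPM, and the APP/PS1 libraries 11.36, 11.49, 11.57, 11.54 and 11.69. Library 1 was the highest control and the lowest APP/PS1 value, library 5 the reverse, and the groups overlapped. The difference of mt-Co1 was 0.037 ± 0.095 (SE), adjusted p = 0.951 with limma. For mt-Cytb, the cytochrome b of complex III (chrM:14145-15288), controls read 10.79, 10.53, 10.59, 10.64 and 10.44, and APP/PS1 libraries 10.39, 10.69, 10.64, 10.58 and 10.78. The same libraries were at the ends, and the difference was 0.015 ± 0.110.

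The 5 mitochondrial complex I genes had the same libraries at the ends. For mt-Nd5 (chrM:11742-13565) controls read 9.07, 8.88, 8.92, 8.97 and 8.62, and APP/PS1 libraries 8.72, 8.95, 8.91, 8.85 and 9.18. Its pair 5 difference, 0.56, was the widest of any mitochondrial gene. For mt-Nd6, the one member encoded on the opposite strand of mitochondrial DNA (chrM:13552-14070), controls read 6.01, 5.69, 5.76, 5.77 and 5.58, and APP/PS1 libraries 5.48, 5.85, 5.80, 5.79 and 5.97. Its end overlaps that of mt-Nd5, and whether the counting used strand is not given in the sources used here. mt-Nd1, mt-Nd2 and mt-Nd4 stood at 9.86 ± 0.13, 9.64 ± 0.14 and 8.58 ± 0.11 log2 CPM in controls and 9.83 ± 0.14, 9.64 ± 0.15 and 8.54 ± 0.13 in APP/PS1 BECs. The differences of the 5 genes lay between -0.045 and 0.029, with adjusted p from 0.933 to 0.999.

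In pairs 1 and 5 the mitochondrial genes differed in opposite directions. In pair 1 all 7 were lower in the APP/PS1 library, by a median of -0.404 (range -0.532 to -0.288), and in pair 5 all 7 were higher, by a median of 0.361 (range 0.197 to 0.555). Of all genes, 50.8% were lower in pair 1 and 47.8% higher in pair 5. The medians of pairs 2, 3 and 4 were 0.104, -0.003 and -0.067. The mitochondrial ribosomal RNAs, which are not members, differed little in pair 5. There mt-Rnr1 differed by -0.0031 and mt-Rnr2 by 0.016. In pair 1 they differed by -0.34 and -0.051, and over 5 pairs by -0.03 ± 0.09 and 0.10 ± 0.06.

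**Figure D2:**
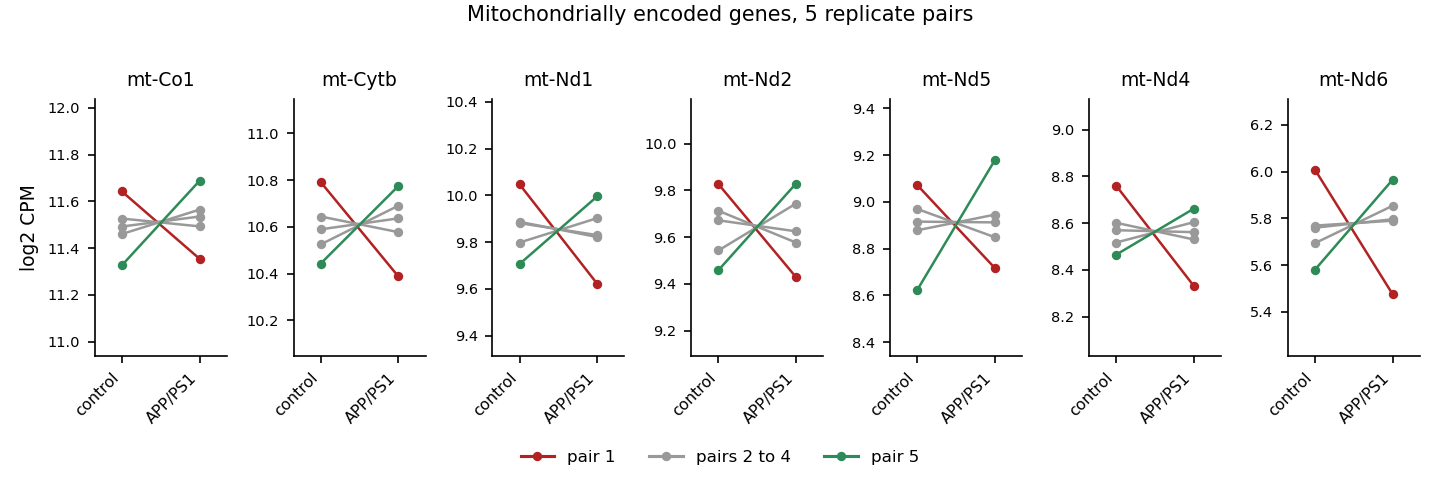
The 7 mitochondrially encoded genes in control and APP/PS1 BECs, in log2 CPM (vertical axes, each spanning the same width), with a line for each replicate pair. In all 7 genes the APP/PS1 library is the lower one in pair 1 (red) and the higher one in pair 5 (green), and the lines of pairs 2 to 4 (grey) are flatter.

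The nuclear genes were like the mitochondrial ones in pair 1 and unlike them in pair 5. In pair 1, 78 of 85 were lower in the APP/PS1 library, with a median of -0.255 and a range from -0.762 to 0.272, against 50.8% of all genes. In pair 2, 29 of 85 were lower (49.7% of all genes), with a median of 0.039. In pair 3, 55 of 85 were lower (50.9%), with a median of -0.043, and in pair 4, 32 of 85 (51.1%), with a median of 0.035. In pair 5, 75 of 85 nuclear genes were lower (52.2%), with a median of -0.071, while all 7 mitochondrial ones were higher. Pair 5 values of other genes of like transcript length are given below. With library size as the only scaling, the median of all genes in pair 4 came to -0.106 and 71 of 85 nuclear members were lower there, while in pairs 1 and 5 it was 81 of 85 in each and the 7 mitochondrial genes kept their direction. Leaving out replicate 1, the median over the nuclear genes was -0.0039 and 47 of 85 were below zero. Over all genes the median was then -0.0024, with 7235 of 14106 below zero, and over the mitochondrial genes it was 0.119.

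**Figure D3:**
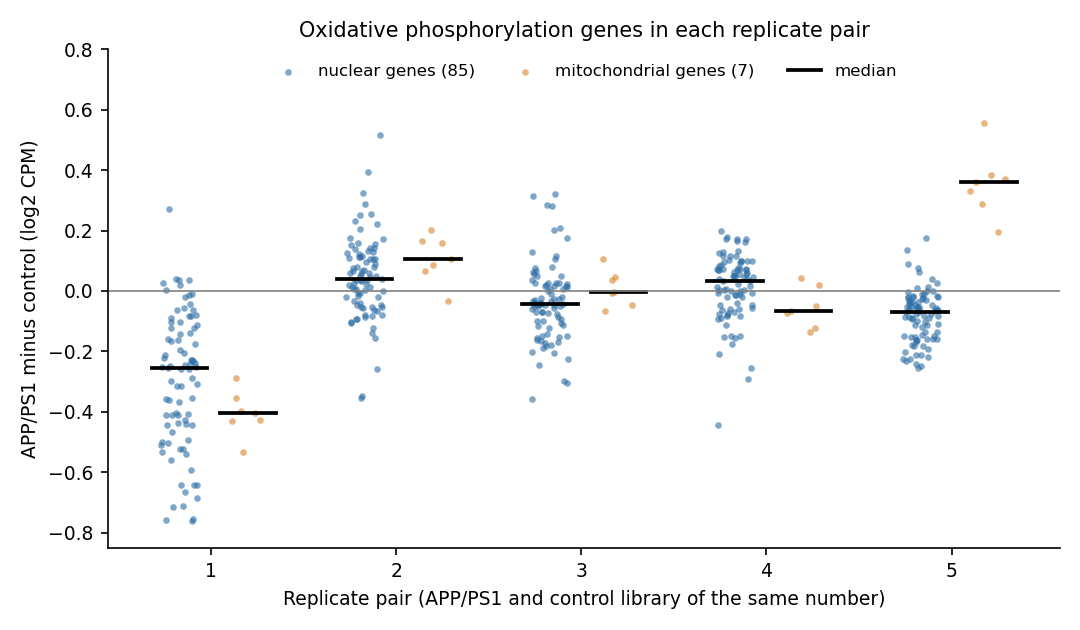
Difference between the APP/PS1 and the control library (log2 CPM, vertical axis) in each of 5 replicate pairs, with a point for each of 85 nuclear (blue) and 7 mitochondrial (orange) genes and a black line for the median. Nuclear medians run from -0.255 in pair 1 to 0.039 in pair 2, and mitochondrial medians from -0.404 in pair 1 to 0.361 in pair 5.

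Pair 1 was also the pair with the widest gap in mural markers, whose summed level differed by -1.71, and the shallowest. Oligodendrocyte markers differed there by -0.81, erythroid by -1.80, astrocyte by -0.31, neuronal by -0.10, microglial by 0.16 and endothelial by -0.009 on the log2 scale. In pair 4 the mural sum differed by -1.34, and the nuclear median was 0.035, or -0.067 with library size as the only scaling. The part of these markers in the result was not tested.

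Complex I, the entry point for NADH, held the nuclear gene with the smallest p. Ndufa8, an accessory subunit on the intermembrane side (chr2:36036326-36049406), read 5.91, 5.62, 5.83, 5.79 and 5.79 log2 CPM in control libraries 1 to 5, and 5.39, 5.67, 5.48, 5.53 and 5.53 in APP/PS1 libraries. It was lower in pairs 1, 3, 4 and 5 and slightly higher in pair 2, where the groups overlapped. The difference was -0.27 ± 0.09 (SE), a fold of 0.831, with an adjusted p of 0.569 in limma, and -0.20 without replicate 1. Ndufb10, an accessory subunit of the membrane arm (chr17:24722060-24724478), read 5.42, 5.30, 5.34, 5.34 and 5.36 in controls and 5.17, 5.28, 5.25, 5.26 and 5.23 in APP/PS1 libraries. All 5 APP/PS1 values lay below all 5 controls, by a mean of -0.12 ± 0.05 (adjusted p = 0.652 with limma).

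Over the 28 accessory subunits of complex I the median difference was -0.086, 27 lay below zero, and 0 passed the test. Leaving out replicate 1, the median was -0.012 and 19 of 28 lay below zero. The 1 above zero was Ndufab1, the mitochondrial acyl carrier protein, at 0.10 ± 0.07, a gene with a named pseudogene that may share its reads. The core subunits, which hold the flavin and the iron-sulfur clusters, differed among themselves. Ndufs8 stood at 4.65 ± 0.10 in controls and 4.48 ± 0.11 in APP/PS1 BECs, a difference of -0.17 ± 0.09, with -0.50 in pair 1. Ndufs1, the largest core subunit (chr1:63143596-63176833), read 5.95, 5.94, 5.96, 5.97 and 5.97 in controls and 5.97, 5.98, 5.96, 5.96 and 5.96 in APP/PS1 libraries. No pair of Ndufs1 differed by more than 0.036, and its mean difference was 0.011 ± 0.039. Among the 8 assembly factors the median was -0.025, with Ndufaf5 at -0.13 ± 0.09, Ndufaf6 at -0.029 ± 0.050 and Ndufaf3 at 0.011 ± 0.046.

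Complex II, succinate dehydrogenase, which also serves the citric acid cycle, was represented by 4 subunits and 4 assembly factors. The subunits did not separate the groups, with differences from -0.024 (Sdhc) to 0.010 (Sdha) and a pair 1 median of 0.011. Sdha, the flavoprotein subunit (chr13:74322254-74350280), read 7.71, 7.73, 7.75, 7.70 and 7.75 in controls and 7.75, 7.73, 7.71, 7.77 and 7.71 in APP/PS1 libraries, a difference of 0.010 ± 0.042. The 4 assembly factors were all below zero, with a median of -0.077, and their pair 1 median was -0.453. Leaving out replicate 1, the median was -0.011 for the factors and 0.0011 for the subunits, with 2 of 4 below zero in each. Sdhaf4, which helps to join flavin-bearing Sdha to Sdhb (chr1:23995939-24005656), read 3.11, 2.85, 2.86, 2.89 and 2.83 in controls and 2.40, 2.70, 2.71, 2.68 and 2.72 in APP/PS1 libraries. Its groups did not overlap, and library 1 was at both ends. The difference was -0.27 ± 0.10, with an adjusted p of 0.599 in limma, and -0.16 without replicate 1. Sdhaf2, the factor needed to attach the flavin to Sdha (chr19:10500534-10526142), read 5.17, 5.12, 5.12, 5.14 and 5.10 in controls and 5.01, 5.06, 5.07, 5.05 and 5.09 in APP/PS1 libraries. These did not overlap either, over a gap of -0.073 ± 0.045. Sdhaf3 differed by -0.08 ± 0.16, from -0.76 in pair 1 to 0.39 in pair 2. Exons of another gene overlap those of Sdhaf4 and of Sdhaf2.

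Complex III, the cytochrome bc1 complex, had 6 of 7 nuclear subunits below zero and a median of -0.092. Leaving out replicate 1, the median was -0.0036, with 4 of 7 below zero. Uqcrq, a small subunit that binds next to cytochrome b (chr11:53427922-53430831), read 4.76, 4.51, 4.58, 4.58 and 4.58 log2 CPM in controls and 4.22, 4.48, 4.43, 4.43 and 4.43 in APP/PS1 libraries. It was lower in all 5 pairs, the groups did not overlap, and its difference was -0.20 ± 0.08 (fold 0.868, adjusted p = 0.620 in limma), or -0.12 without replicate 1. Uqcrfs1, the Rieske iron-sulfur protein, lay at 5.23 ± 0.07 and 5.25 ± 0.07, a difference of 0.020 ± 0.065.

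Complex IV, cytochrome c oxidase, had 11 of 12 nuclear subunits below zero, a median of -0.101 and a pair 1 median of -0.432, with all 12 lower in that pair. Leaving out replicate 1, the median was -0.025, with 8 of 12 below zero. Cox7b, a small subunit encoded on the X chromosome (chrX:106015700-106022450), read 4.93, 4.62, 4.60, 4.60 and 4.66 in controls and 4.17, 4.54, 4.57, 4.58 and 4.51 in APP/PS1 libraries. Every pair was lower, but pair 1 differed by -0.75 and pairs 2 to 5 by -0.15 to -0.02, so that the mean of -0.21 ± 0.12 became -0.07 without replicate 1. Cox5b, a zinc-binding subunit, had the smallest p of the complex (adjusted p = 0.686 with limma) at -0.12 ± 0.05, with pairs from -0.25 to 0.01. Cox5a was the 1 subunit above zero, at 0.03 ± 0.09.

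ATP synthase, complex V, makes ATP in its F1 part. There the median of 5 subunits was 0.005, and in the stalk and membrane part, with 10 of 11 below zero, it was -0.092. Leaving out replicate 1, these medians were 0.022 and -0.023, with 6 of 11 stalk and membrane genes below zero. Atp5b (chr10:128083273-128090391) read 8.72, 8.78, 8.73, 8.66 and 8.78 in controls and 8.76, 8.70, 8.75, 8.83 and 8.70 in APP/PS1 libraries, a difference of 0.013 ± 0.054. Atp5e, the small epsilon subunit of F1, departed from the rest of its part with -0.13 ± 0.12, as pair 1 differed by -0.68 and the other pairs by -0.08 to 0.11. In the membrane part Atp5l, subunit g, differed by -0.20 ± 0.09 (adjusted p = 0.663 with limma) and has a named pseudogene. Atp5s, known as factor B, differed by 0.040 ± 0.067.

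**Figure D4:**
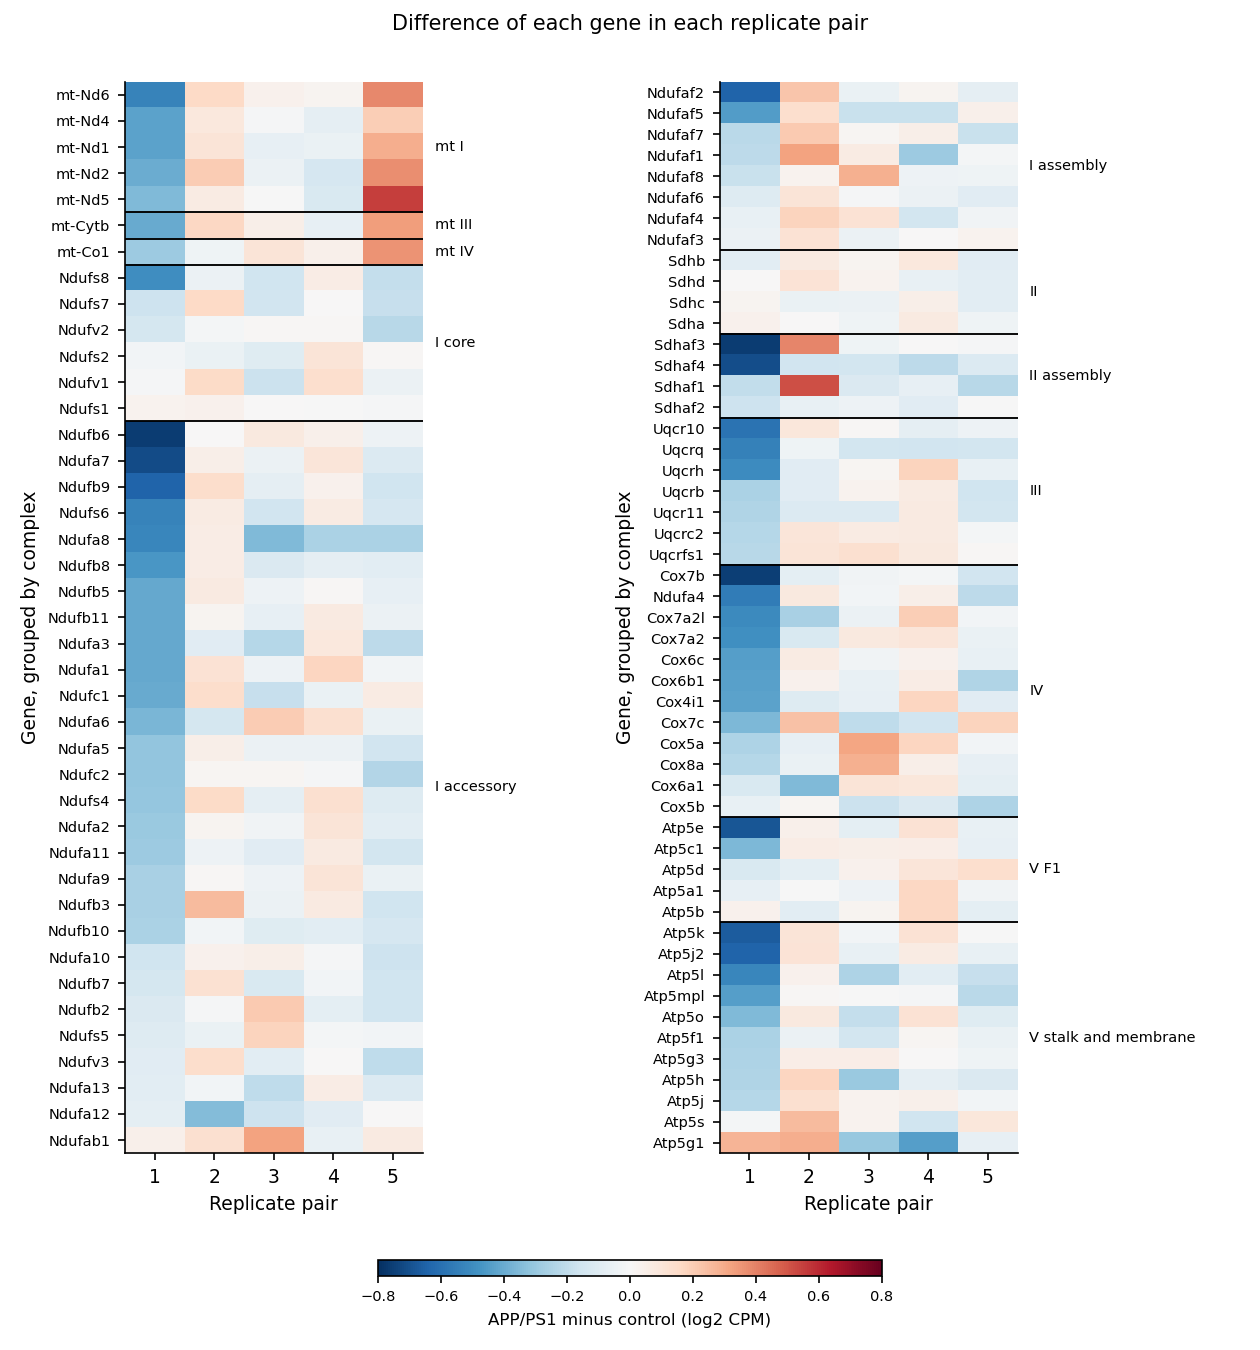
Difference of each of the 92 genes (rows, grouped by complex and sorted by pair 1) in each of 5 replicate pairs (columns), as APP/PS1 minus control in log2 CPM, blue for lower and red for higher. Column 1 is blue for 78 of 85 nuclear and all 7 mitochondrial genes, the 4 complex II subunits are pale throughout, and column 5 is red for the mitochondrial genes.

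The nuclear genes that were lowest in pair 1 were mostly those with short transcripts. Length classes were set after the values were seen and are given as a description. With a principal transcript under 800 bases, 38 of 38 nuclear members were lower in pair 1, with a median of -0.408, and over 5 pairs the median was -0.101. From 800 to under 1500 bases the 24 members had medians of -0.288 in pair 1 and -0.086 over 5 pairs, and at 1500 bases or more the 23 members had -0.090 and -0.024. Other protein-coding genes of the same classes showed the same order at a smaller size. Their medians in pair 1 were -0.230 (291 genes, of which 77.7% were lower), -0.107 (1275 genes) and 0.008 (10155 genes), and over 5 pairs -0.056, -0.033 and -0.0018. In pair 5 the members had medians of -0.087, -0.060 and -0.055, and the other genes -0.080, -0.073 and -0.0005. In that pair the medians of the members under 1500 bases lay close to those of other genes of their length. By count, 37 of 38, 18 of 24 and 20 of 23 members were lower in pair 5. Of the other genes, 208 of 291, 908 of 1275 and 5089 of 10155 were lower there.

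Across genes, Spearman's rho between transcript length and the difference was 0.57 in pair 1 for the 85 nuclear members and 0.20 for 11721 other protein-coding genes. For pairs 2 to 5 it was 0.21, 0.07, -0.21 and 0.21 for the members, and -0.11, 0.09, -0.10 and 0.23 for the other genes. Among the other genes it was thus slightly larger in pair 5 than in pair 1. Genes share their libraries and are not independent replicates, and no p is given. Ndufs1, Sdha and Atp5b, which differed in pair 1 by 0.026, 0.037 and 0.037, have transcripts of 2661, 2900 and 1916 bases. Sdhaf4, Ndufb10 and Atp5e, at -0.71, -0.25 and -0.68 in pair 1, have 683, 732 and 421. Sdhaf3 and Uqcrq are exceptions, with transcripts of 4323 and 1521 bases and pair 1 differences of -0.76 and -0.54. The part of transcript length in the difference between groups was not tested.

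**Figure D5:**
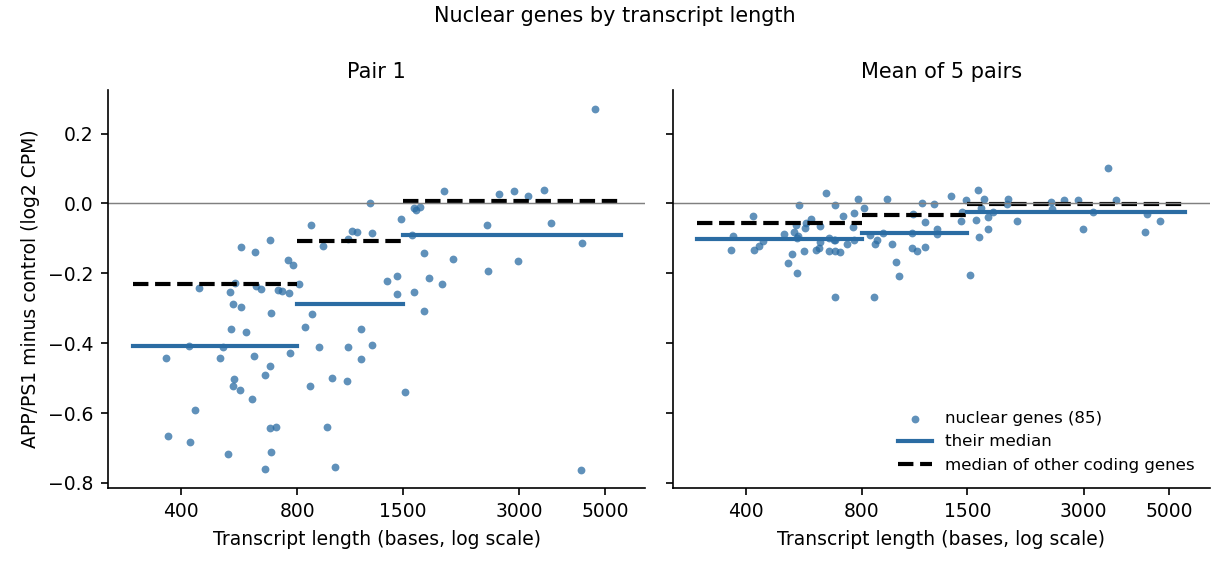
Difference of the 85 nuclear genes (APP/PS1 minus control, log2 CPM, vertical axis) against principal transcript length (bases, log scale), in pair 1 (left) and as the mean of 5 pairs (right). Solid blue lines are medians of the nuclear genes in 3 length classes and dashed black lines those of other protein-coding genes. In pair 1 the blue medians are -0.408, -0.288 and -0.090.

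Cox4i2 and Ndufa4l2, the alternative forms left out by the rule, are respiratory genes of pericytes and were read at low levels. Cox4i2 read 1.81, 1.32, 1.42, 1.53 and 1.29 log2 CPM in controls and 0.27, 1.02, 0.92, 0.79 and 1.04 in APP/PS1 libraries. Ndufa4l2 read 2.59, 1.88, 1.97, 2.40 and 1.92 in controls and 0.52, 1.65, 1.59, 1.02 and 1.63 in APP/PS1 libraries. Both were lower in all 5 pairs without overlap, by -0.67 ± 0.20 and -0.87 ± 0.31, with adjusted p of 0.563 and 0.580 in limma. Both are in the mural marker list given above, whose 13 genes had a median difference of -0.77.

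The rest of the mitochondrial program was also compared, and 0 genes of any list passed the adjusted threshold. Beside the counts here and in the next paragraph, 51.8% of all genes lay below zero. In all 5 pairs 5.0% of all genes were lower and 2.99% higher. Of 7 other respiratory chain genes, which include the pair just named, all were below zero (median -0.164). Cyc1 and Cycs, the c-type cytochromes of the respiratory chain, differed by -0.036 ± 0.048 and -0.07 ± 0.09. Of 33 further assembly factors 20 lay below zero (median -0.027), and the smallest p in each direction was that of Uqcc2 at -0.14 ± 0.08 and Cox17, a copper chaperone for complex IV, at 0.27 ± 0.13. Of 18 genes for mitochondrial biogenesis and expression of mitochondrial DNA 8 lay below zero (median 0.018). Tfam, which packages and transcribes mitochondrial DNA, differed by -0.10 ± 0.07, and Polg2, a subunit of the mitochondrial DNA polymerase, by 0.36 ± 0.12, higher in all 5 pairs at an adjusted p of 0.571. Ppargc1a, a coactivator of mitochondrial biogenesis, was read at only 0.45 ± 0.33 and 0.34 ± 0.31 log2 CPM.

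Of 18 citric acid cycle genes 11 lay below zero (median -0.017), with Idh2 at -0.12 ± 0.06 and Cs, citrate synthase, at 0.030 ± 0.051. Of 14 transport genes 8 did (median -0.022), with Timm44 at -0.083 ± 0.048 and Tomm40 at 0.042 ± 0.040. Of 17 antioxidant and quality control genes 10 did (median -0.026), with Prdx5, a peroxiredoxin, at -0.14 ± 0.05 and lower in all 5 pairs, and Hspa9 at 0.047 ± 0.046. Of 75 mitochondrial ribosomal protein genes 50 did (median -0.036), and the smallest p in each direction was that of Mrpl44 at -0.14 ± 0.05 and Mrpl38 at 0.09 ± 0.05. In pair 1 the ribosomal protein genes had a median of -0.154, with 59 of 75 lower.

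Promoters were compared because nuclear members are known to share binding sequences for the activators NRF1, GABP and YY1. RefSeq promoter windows (GRCm38.p6, 250 bases before to 50 after the start) were matched for 72 of 85 nuclear members and for 9369 other genes of the table, and both strands were searched. The NRF1 core GCGCANGCG was found in 20 members (27.8%) and 14.2% of other genes, the ETS core CCGGAAG bound by GABP in 19 (26.4%) and 18.7%, and the YY1 core AAGATGGC in 10 (13.9%) and 4.81%. At least 1 of the 3 was found in 40 members (55.6%) and 33.0% of other genes. The 40 had a median difference of -0.091 and the 32 with none -0.052, and in pair 1 these were -0.298 and -0.225. The NRF1 core read on one strand can overlap itself on the other.

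The 120 bases before the outermost annotated start are shown for a pair of complex II subunits that did not separate the groups and for 2 genes much lower in pair 1, with the capitals marking NRF1 or ETS cores on either strand.
Sdha (chr13:74350281-74350400, minus strand): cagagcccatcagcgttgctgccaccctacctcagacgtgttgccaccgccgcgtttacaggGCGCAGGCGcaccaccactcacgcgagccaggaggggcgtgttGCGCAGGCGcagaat
Sdhd (chr9:50603850-50603969, minus strand): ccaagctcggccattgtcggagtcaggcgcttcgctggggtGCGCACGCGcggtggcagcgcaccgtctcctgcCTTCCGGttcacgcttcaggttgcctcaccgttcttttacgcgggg
Sdhaf4 (chr1:24005657-24005776, minus strand): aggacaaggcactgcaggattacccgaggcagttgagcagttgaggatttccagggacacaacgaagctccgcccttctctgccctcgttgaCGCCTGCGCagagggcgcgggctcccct
Atp5e (chr2:174464106-174464225, minus strand): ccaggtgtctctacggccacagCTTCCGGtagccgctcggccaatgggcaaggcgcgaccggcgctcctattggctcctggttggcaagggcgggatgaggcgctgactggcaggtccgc
All 4 of these chosen examples carried a core, Sdha and Sdhd at 0.037 and 0.0019 in pair 1 and Sdhaf4 and Atp5e at -0.71 and -0.68. The same 120 bases of Sdhb, another complex II subunit, held no NRF1 or ETS core. A match is a description of these letters and not a measured binding site.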

How the data were processed

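The deposited values were log2 CPM of 14106 genes in 10 BEC libraries. Per the paper's methods and the labels, the authors used STAR for alignment to mm10, HTSeq for gene counts, edgeR for a low-count filter and log2 CPM, and ComBat for batch correction. Versions and strandedness are not given in the sources used here. The values gave back whole adjusted counts in 100% of cases (prior count 3, tolerance 0.01), so depths refer to batch-corrected counts and not to raw reads. Each sample's own file equalled its column in the series table for 10 of 10 libraries.

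Groups and replicate numbers came from the labels, which also give 4 batches, with replicates 4 and 5 in one. Because the deposited values behave as 5 centred pairs (rank correlations of -0.999 to -0.989 over the 10873 genes that average more than 2 log2 CPM), the replicate pair was a term of the model. limma 3.58.1 in R 4.3.3 (lmFit, eBayes) was run on the deposited log2 values of all genes with Benjamini-Hochberg adjustment, at a threshold of 0.05, after testing on simulated data. Group values are means ± SD and differences are APP/PS1 minus control ± SE. As the values are centred within pairs, these SDs mirror the spread of the pair differences and not that of uncorrected libraries. Levels per kilobase and all length classes used the GENCODE M21 principal transcript.

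Members, gene lists and tests were chosen with earlier results of these data known. Genes named were all mitochondrial members, the smallest p in each direction of each role group or list, members alike in all 5 pairs, the 3 highest and lowest nuclear genes per length, isoform sets, and Cox4i2 and Ndufa4l2. The mitochondrial ribosomal RNAs, Sdhd, Cyc1, Cycs and Ppargc1a were added after their values were seen. Exons of other genes overlap those of 37 members, and 5 members have a named pseudogene. Alternatives were no replicate pair, 4 label batches, other scalings and prior counts, a filter on low values, a trended prior, limma-voom and leaving out each replicate.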

Additional observations from a re-analysis of the deposited data

Results flagged for a closer look

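Among 39 named members and both shares of counts, 82 groups of 5 values were examined for a single library far from the other 4, a gap to the nearest value of more than 0.71 of the whole range. Chance gives about 1 in 20 such groups, and 8 were found, all in replicate 1 and as both ends of 4 genes. For Sdhaf4, control replicate 1 read 3.11 log2 CPM and APP/PS1 replicate 1 2.40. For Cox7b they read 4.93 and 4.17, for Uqcrq 4.76 and 4.22, and for Atp5e 5.66 and 4.98. Since the deposited values are centred within a pair, the control and the APP/PS1 value of a gene are 1 deviation seen from both sides, so these are 4 differences rather than 8.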

How the results depend on the processing

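Every call in the report was 0 at an adjusted p of 0.05, which held for the mitochondrial members under all alternatives and for the nuclear members under all but 1. Without the replicate block 648 genes passed, 1 of them a nuclear member (Ndufa8, 0.049), as that model counts the centred pairs as independent. With 4 label batches as the term 1 gene passed, and leaving out each replicate gave 0 to 5 genes. Leaving out each replicate in turn, 5 to 15 nuclear members were lower in all 4 remaining pairs (6.83 to 13.3% of all genes), 0 to 1 nuclear and 0 to 1 mitochondrial members higher (4.59 to 11.8%). The nuclear median stayed below zero in every alternative run, between -0.110 (library size alone) and -0.0039 (without replicate 1). The median of all genes was -0.041 and -0.0024 in these settings. Without replicate 1, 47 of 85 nuclear members and 7235 of 14106 genes lay below zero, so little of the nuclear shift was left.

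Of 39 named members 19 kept their sign in every alternative and 20 did not, none of the 20 past the threshold. With library size as the only scaling, Atp5b came to -0.024, Cox5a to -0.0070, Ndufaf3 to -0.026, Ndufs1 to -0.027, Sdha to -0.027, Uqcrfs1 to -0.017, mt-Cytb to -0.023, mt-Nd5 to -0.0087 and mt-Nd6 to -0.023. This scaling moved the median of all genes from -0.0038 to -0.041, and all 9 lay above that median. With median-of-ratios scaling Cox8a came to 0.0013 and mt-Nd2 to 0.0027, and with limma-voom Cox8a to 0.017, Sdhaf3 to 0.045, mt-Cytb to -0.030 and mt-Nd5 to -0.016. Over the fits without 1 replicate the log2 differences ranged from -0.025 to 0.037 for Atp5b, -0.195 to 0.0043 for Atp5e, -0.135 to 0.047 for Atp5g1, -0.058 to 0.017 for Atp5g3, -0.047 to 0.042 for Atp5j, -0.013 to 0.089 for Atp5s, -0.041 to 0.099 for Cox5a, -0.075 to 0.053 for Cox8a, -0.015 to 0.025 for Ndufaf3, -0.0060 to 0.021 for Sdha, -0.200 to 0.088 for Sdhaf3, -0.0070 to 0.080 for Uqcrfs1, -0.044 to 0.119 for mt-Co1, -0.065 to 0.119 for mt-Cytb, -0.109 to 0.069 for mt-Nd1, -0.095 to 0.097 for mt-Nd2, -0.105 to 0.051 for mt-Nd4, -0.103 to 0.1245 for mt-Nd5 and -0.079 to 0.150 for mt-Nd6. The cause of the changes of sign under settings other than library size alone was not tested.

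The depth recovered is that of batch-corrected counts, so raw depth is unknown, and pair 1 rests on the shallowest libraries. With 5 pairs, a p that misses the threshold does not show that values were alike.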
